A study of Bombyx mori with 4 samples.

Results

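Loss of BmSCE was set against loss of BmESC in cultured silkworm cells, array against array. BmSCE is the silkworm homologue of Drosophila Sex combs extra, a subunit of Polycomb repressive complex 1 (PRC1). BmESC is the homologue of extra sex combs, a subunit of Polycomb repressive complex 2 (PRC2). For each probe the log2 ratio of the BmESC RNAi array was subtracted from the log2 ratio of the BmSCE RNAi array. A positive difference means that the signal was higher after BmSCE RNAi than after BmESC RNAi, both relative to EGFP RNAi. A probe entered when its detection flag passed on both arrays, which required the brighter of its channels to reach an intensity of 400. Of 23229 gene probes 7619 met this rule, and 5589 of these carried a gene name in the array annotation.

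The cells were BmN4-SID1, a line derived from silkworm ovary that carries a nematode double-stranded RNA channel and takes up double-stranded RNA (dsRNA) from the medium. All groups were cultured with dsRNA to day 7, against a PcG gene or against EGFP, a foreign gene that served as the control. In each of 4 arrays the knockdown RNA was labeled with Cy5 and the EGFP RNAi RNA with Cy3, with no dye swap, and the material of 3 experiments had been pooled into 1 sample before RNA was isolated. The arrays of BmPHO RNAi and BmSCM RNAi, which target further PcG genes, are given beside the main comparison as values only. With 1 array per knockdown no statistical test between knockdowns was possible and no difference has a replicate check. "Higher" and "lower" below mean past 2.0-fold between the arrays, the threshold of the study, and not past a test. BmN4-SID1 is a single cell line, so the values describe this line and not silkworm tissue.

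In Drosophila and mammals, PRC2 places methyl groups on lysine 27 of histone H3, and its ESC subunit is required for that activity. PRC1 is thought to compact chromatin, and its SCE (dRING) subunit is a ligase that attaches ubiquitin to histone H2A. The complexes occupy many of the same genes, above all those of developmental regulators such as the Hox genes, and hold them silent. PHO is a DNA-binding protein that helps to bring the complexes to their sites, and SCM is an associated PcG protein.

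The dsRNAs are shown first because they define what was removed. They were transcribed from PCR products made with the following primers, written 5′ to 3′ without their promoter tails, and capitals mark a primer that was also used to measure the same transcript by RT-PCR.
dsSCE sense primer: CACAGAACAGACCTCAAAGA
dsSCE antisense primer: AAGTGAGACGCATCGCTAGG
dsESC sense primer: gcagacgtgcatcaaacact
dsESC antisense primer: CTTCCAGCAGATTATAGCGT
Each primer is 20 bases long. Both dsSCE primers served also for RT-PCR, so that the product measured there spans the same stretch as the dsRNA. For BmESC the antisense primer alone was shared.

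The arrays were first read at probes taken for the targeted genes. No probe is annotated as Sex combs extra, but probe sw15420 matches Drosophila DRING, another name of that protein, and it was identified after its values were seen. Its Cy5 and Cy3 intensities were 387 and 2701 in BmSCE RNAi, 4794 and 2500 in BmESC RNAi, 3599 and 2807 in BmPHO RNAi, and 3210 and 2418 in BmSCM RNAi. The knockdown channel was thus low on the BmSCE array and brighter than the EGFP channel on the other 3. Its log2 ratios were -3.02 in BmSCE RNAi and 0.56 in BmESC RNAi, a difference of -3.57 (11.9-fold).

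Probe sw12637, a match to extra sex combs of a butterfly, showed the reverse. Its Cy5 and Cy3 intensities were 2868 and 2274 in BmSCE RNAi, 486 and 2311 in BmESC RNAi, 1779 and 2136 in BmPHO RNAi, and 1309 and 1644 in BmSCM RNAi. The knockdown channel was far below the EGFP channel on the BmESC array alone. Its log2 ratios were 0.13 in BmSCE RNAi and -2.61 in BmESC RNAi, a difference of 2.74 (6.68-fold). The probe taken for each target was low on its own array and not on the other. Because sw15420 was identified after its values were seen, its low signal is no independent check of the BmSCE knockdown. Its match to BmSCE was not tested by sequence.

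**Figure D1:**
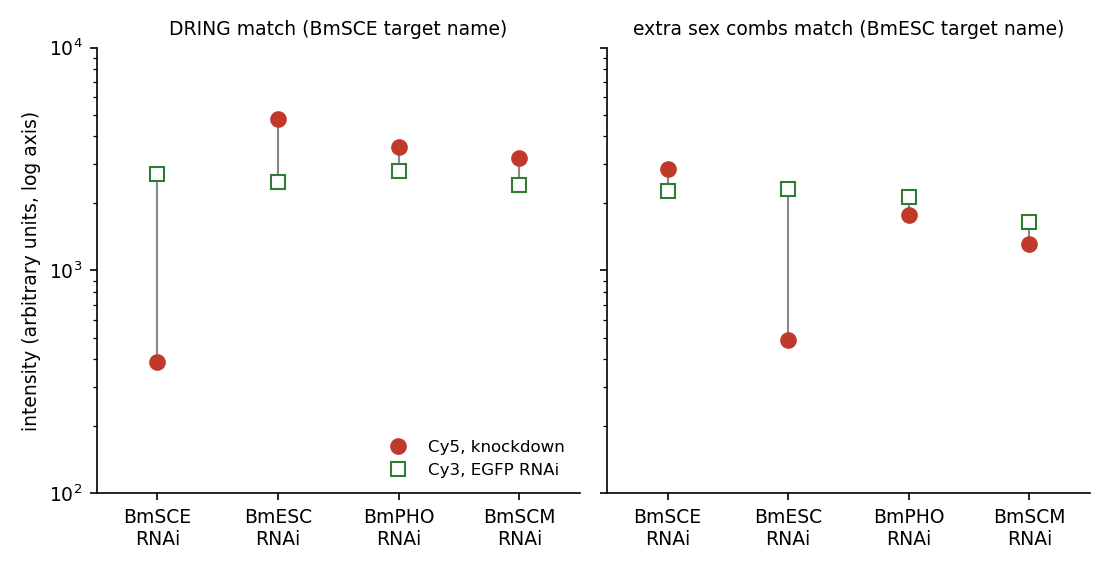
Intensity (log axis) of the probes matching DRING (sw15420, left) and extra sex combs (sw12637, right) on the 4 arrays, 1 spot per point, with filled circles for the knockdown channel (Cy5) and open squares for EGFP RNAi (Cy3). The knockdown channel is at 387 on the BmSCE array for DRING and at 486 on the BmESC array for extra sex combs, and stays within a range of 1309 to 4794 on all other arrays.

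Other PcG genes differed little between the knockdowns. Of 6 probes named for the Polycomb group and compared, only extra sex combs was past 2.0-fold. The polyhomeotic matches, a PRC1 subunit, differed by -0.21 (sw02381) and 0.08 (sw17606), and the polycomblike matches, a PRC2-associated factor, by 0.00 (sw00723) and 0.19 (sw16438). Enhancer of polycomb (sw07595) differed by -0.42. Retinoblastoma binding protein 4 (sw15905), a histone-binding subunit of PRC2, differed by 0.07. The match to M33 (sw14515), the mouse homologue of Polycomb itself, had log2 ratios of 1.04 in BmSCE RNAi and 0.58 in BmESC RNAi, a difference of 0.45.

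Over all probes compared the difference had a median of 0.01 and an SD of 0.452 on the log2 scale. In BmSCE RNAi relative to BmESC RNAi 140 probes were higher (1.84%) and 141 were lower (1.85%), 3.69% in all, and 51.4% of probes lay above 0. The threshold fell in a continuous distribution, and the smallest difference counted was 1.00 in either direction. The size of the difference had a median of 1.25 among the higher and 1.19 among the lower probes. It was over 4-fold for 14 higher and 4 lower probes. The same subtraction of BmSCM RNAi from BmPHO RNAi gave an SD of 0.407 with 68 higher (0.964%) and 79 lower (1.12%) of 7054 probes.

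Most of the contrast came from the BmESC array. Among the probes compared, BmESC RNAi had 340 up (4.46%) and 304 down (3.99%) past 2.0-fold against EGFP RNAi, and BmSCE RNAi had 170 up (2.23%) and 79 down (1.04%). The log2 ratios had an SD of 0.577 in BmESC RNAi and 0.436 in BmSCE RNAi. Of the 140 higher probes, 91 were down in BmESC RNAi only, 20 were up in BmSCE RNAi only, 3 were both, and 26 passed 2.0-fold on neither array alone. Of the 141 lower probes, 94 were up in BmESC RNAi only, 6 were down in BmSCE RNAi only, 1 was both, and 40 were neither. The median log2 ratio of the higher probes was -0.01 in BmSCE RNAi and -1.34 in BmESC RNAi, and that of the lower probes was 0.06 and 1.27.

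The BmPHO and BmSCM arrays were not used in choosing these probes. The higher probes had median log2 ratios of -0.62 in BmPHO RNAi and -0.47 in BmSCM RNAi, between the medians of the arrays compared. The lower probes had medians of 0.33 and 0.24, again in between. Choosing probes by the distance between the arrays compared makes a place in between likely for any other array. No conclusion is drawn from it. Of the higher probes measured on all 4 arrays, the mean of BmPHO and BmSCM RNAi was nearer to BmSCE RNAi in 69 and nearer to BmESC RNAi in 65. For the lower probes these counts were 88 and 40. The counts depend on the same choice of probes. The EGFP RNAi channel is separate on each array, and the labels do not say whether its RNA was shared between arrays.

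**Figure D2:**
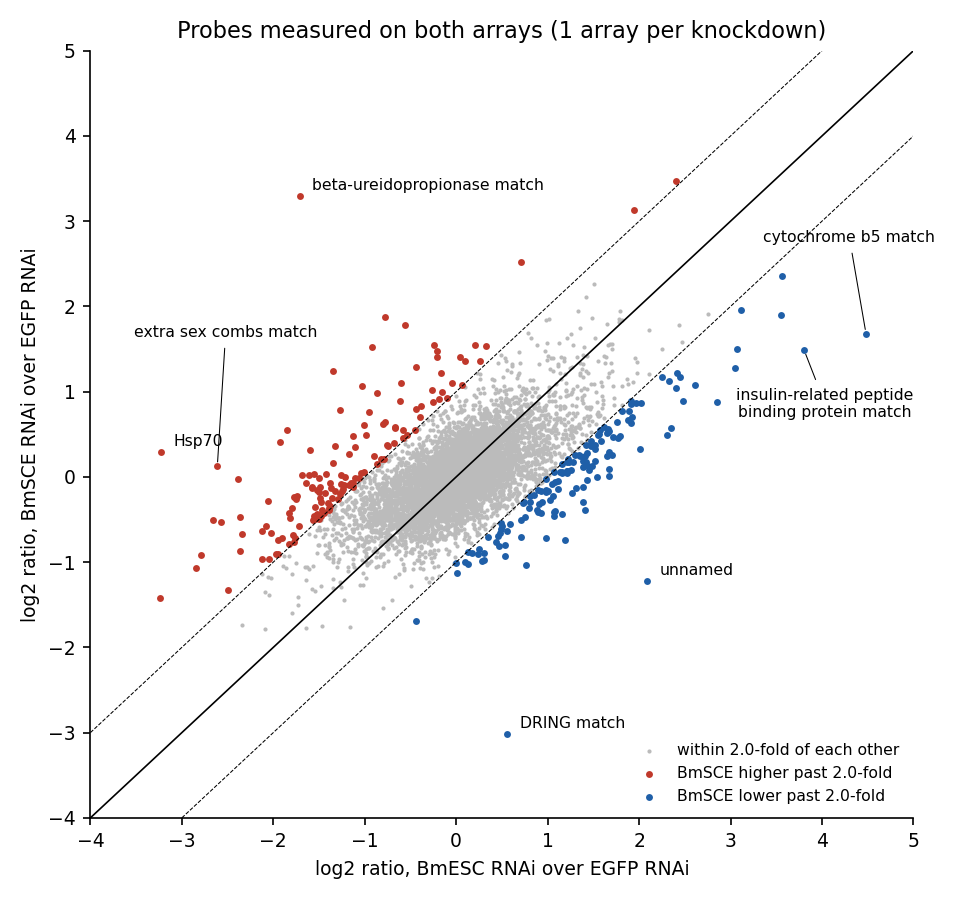
Log2 ratio over EGFP RNAi in BmSCE RNAi (vertical) and BmESC RNAi (horizontal) for the 7619 probes compared, 1 point per probe. The solid line marks equality and the dashed lines 2.0-fold, and the 140 higher (red) and 141 lower (blue) probes spread mainly along the horizontal axis.

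Several measurements bear on how far a single difference can be trusted. Control probes printed about once in each of 48 blocks had a pooled SD between spots of 0.262. Their median differences were -0.07 to 0.45 for 7 yeast spike-ins and 0.05 to 0.64 for 5 silkworm control probes, the last being a match to a subunit of translation initiation factor 3 (sw13956). Of 382 blank spots the flag passed 71 on the BmSCE array and 100 on the BmESC array. The called probes lay in 47 (higher) and 45 (lower) of the print blocks, with at most 8 and 7 in any one. Requiring all 4 intensities to be at least 400 kept 6424 probes, of which 111 were higher (1.73%) and 116 lower (1.81%).

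The EGFP channel moved with the lower probes. For single channels, each was first given the same distribution of intensities on both arrays by quantile normalization. Comparing the Cy5 channels alone, the higher probes had a median difference of 1.27, and their Cy3 (EGFP RNAi) channels differed by a median of -0.06. For the lower probes the Cy5 median was -0.97 and the Cy3 median 0.30, and 67 of the 141 were past 2.0-fold in Cy5 alone, against 109 of the 140 higher probes. The part of the EGFP channel in the lower calls was not tested further. Of 95 genes represented by more than 1 probe, the probes lay within 0.5 of each other in 75, with a median range of 0.25. Of these genes 5 had a called probe, and Hsp70 was the only one in which every probe was called. The rest disagreed, as in topoisomerase II with -1.35 (sw20885) and 0.11.

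Probes that moved in opposite directions past 2.0-fold in the knockdowns numbered 4 of 7619 (0.0525%). The farthest apart of all probes was sw08667, a match to beta-ureidopropionase, the enzyme of the last step of pyrimidine breakdown, which releases beta-alanine. Its Cy5 and Cy3 intensities were 25245 and 2172 in BmSCE RNAi, 1016 and 2559 in BmESC RNAi, 1561 and 2342 in BmPHO RNAi, and 2883 and 1822 in BmSCM RNAi. The signal was up past 2.0-fold in BmSCE RNAi alone, and on the BmSCM array Cy5 was also above Cy3. The log2 ratios were 3.30 in BmSCE RNAi and -1.71 in BmESC RNAi, a difference of 5.01 (32.2-fold).

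The annulin match sw20237, a transglutaminase that cross-links proteins, had log2 ratios of 1.25 in BmSCE RNAi, -1.34 in BmESC RNAi, 1.60 in BmPHO RNAi and 0.47 in BmSCM RNAi. BmPHO RNAi lay on the BmSCE side. The remaining pair carried no gene name. Probe sw13031 had log2 ratios of 1.07 in BmSCE RNAi and -1.03 in BmESC RNAi, and 0.02 and 0.41 in BmPHO and BmSCM RNAi. Probe sw18563 was the only one down in BmSCE RNAi and up in BmESC RNAi, with -1.22 and 2.08, and it had 1.08 and 0.53 in BmPHO and BmSCM RNAi. Its Cy5 and Cy3 intensities were 3119 and 6239 in BmSCE RNAi and 19985 and 3601 in BmESC RNAi.

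Some enzymes that act near beta-ureidopropionase were also among the higher probes, a grouping made after the values were seen. Uridine phosphorylase (sw12305), which splits uridine into uracil and ribose phosphate, had log2 ratios of 0.32 in BmSCE RNAi and -1.60 in BmESC RNAi, a difference of 1.92. The match to alanine-glyoxylate aminotransferase (sw17990), of a family of which one mammalian member uses beta-alanine, had 0.55 and -1.85, a difference of 2.40. Its Cy5 intensity on the BmESC array was only 207. Of 39 compared probes annotated to pyrimidine metabolism 3 were higher and none lower, where 1.84% of all probes were higher. The third was an RNA polymerase subunit match (sw17844), which is not an enzyme of this pathway, with a difference of 1.10. The match to dihydropyrimidine dehydrogenase (sw20520), with the same annotation, did not differ. Its log2 ratios were 1.21 in BmSCE RNAi and 1.20 in BmESC RNAi, a difference of 0.01.

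Heat shock proteins formed the largest named group of higher probes. These chaperones bind unfolded proteins, and many are induced by heat and other stress. Of 67 compared probes named for heat shock proteins and chaperones 11 were higher (16.4%, against 1.84% of all probes) and none was lower. The list median was 0.21 against 0.01 for all probes. With other processing the count of higher probes was 9 to 13 and that of lower probes 0. The list median was -0.19 in BmSCE RNAi and -0.55 in BmESC RNAi.

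The strongest was Hsp70, the main inducible chaperone of this class. Its probe sw22585 had Cy5 and Cy3 intensities of 41458 and 27024 in BmSCE RNAi, 5664 and 40366 in BmESC RNAi, 29961 and 26364 in BmPHO RNAi, and 35159 and 23617 in BmSCM RNAi. BmESC RNAi alone was low. The log2 ratios were 0.29 in BmSCE RNAi and -3.23 in BmESC RNAi, a difference of 3.52 (11.5-fold). The other Hsp70 probe, sw22145, had log2 ratios of -0.03 in BmSCE RNAi, -2.39 in BmESC RNAi, 0.38 in BmPHO RNAi and -0.03 in BmSCM RNAi. Both probes thus set BmESC RNAi apart from the other 3 arrays.

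Hsp90 (sw01900), which acts with Hsp70 on signaling proteins, was down on all 4 arrays, with log2 ratios of -1.06 in BmSCE RNAi, -2.84 in BmESC RNAi, -0.83 in BmPHO RNAi and -0.35 in BmSCM RNAi. BmESC RNAi was again the lowest, and the difference was 1.78 (3.43-fold). Probes named for cognate forms of Hsp70, which are expressed without stress, were not past 2.0-fold and went both ways. Probe sw22917 had -0.89 in BmSCE RNAi and -0.26 in BmESC RNAi, a difference of -0.63, and sw08198 had -1.07 and -1.86, a difference of 0.80. Of 10 compared probes of the Hsp70, Hsp90, Hsp60 and Hsp10 families 3 were higher, the probes of Hsp70 and Hsp90 just given. The 8 compared subunits of the TCP-1 ring, a chaperonin for actin and tubulin, included none past 2.0-fold and had a median of 0.08.

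The small heat shock proteins, which hold unfolded proteins until other chaperones take them over, were higher in 8 of 9 compared probes, with a median of 1.43. This sublist was drawn up after the values were seen, so its share of higher probes cannot be set against the 1.84% of all probes. Hsp23.7 (sw13175) had log2 ratios of 1.52 in BmSCE RNAi, -0.92 in BmESC RNAi, 0.75 in BmPHO RNAi and 0.26 in BmSCM RNAi, a difference of 2.44 (5.41-fold). One hsp20.1 probe (sw15945) had 1.79, -0.56, 1.20 and 0.60 in the same order, a difference of 2.35 (5.10-fold). In these probes BmSCE RNAi was up past 2.0-fold. Other members differed mainly through BmESC RNAi, as hsp19.9 (sw00199) with 0.37 in BmSCE RNAi and -1.32 in BmESC RNAi, and another hsp20.1 probe (sw03679) with 0.03 and -1.61.

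The remaining small heat shock probes were closer to the threshold. A further hsp19.9 probe (sw00502) differed by 1.43 and the hsp19.5 match (sw09447) by 1.38. The hsp20.8 match (sw03800) was up on all 4 arrays, with 1.53 in BmSCE RNAi, 0.33 in BmESC RNAi, 1.69 in BmPHO RNAi and 1.19 in BmSCM RNAi. Hsp21.4 (sw01265) differed by 1.00, and by 0.56 in the Cy5 channels alone, and the ninth probe, of hsp20.1 (sw05107), by 0.52. Small heat shock genes are closely alike in sequence, and how far their probes detect each other's transcripts was not tested.

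**Figure D3:**
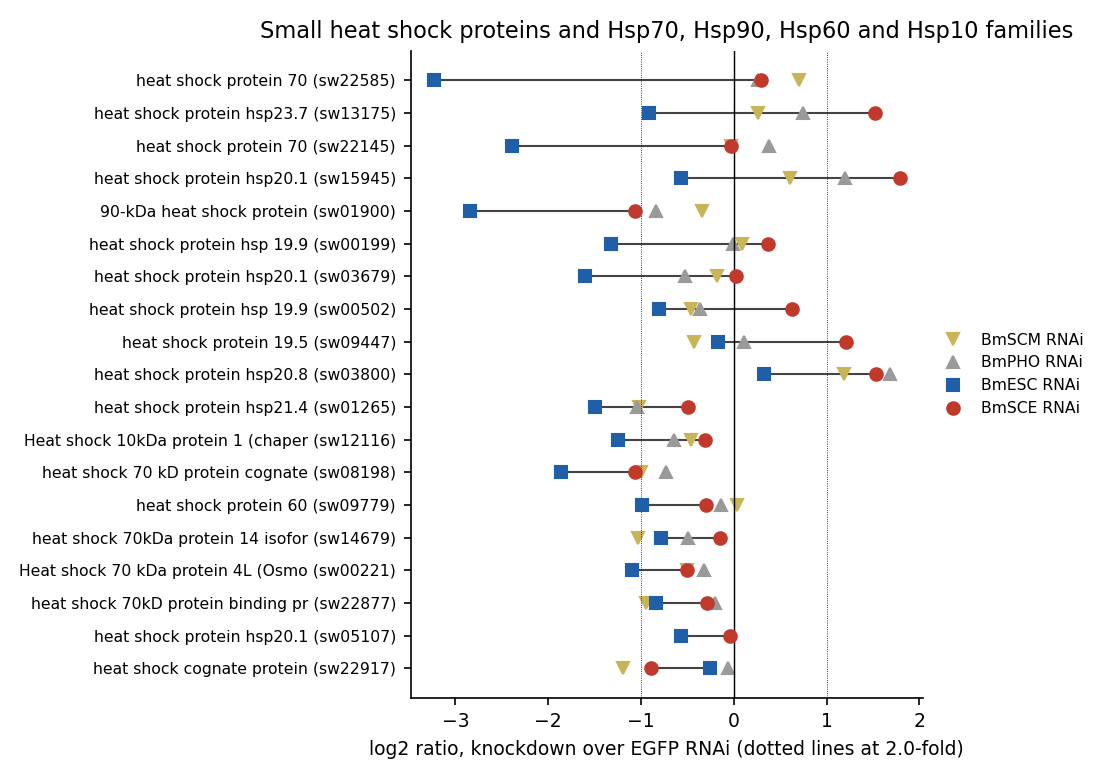
Log2 ratio over EGFP RNAi on the 4 arrays for the compared probes of the small heat shock proteins and the Hsp70, Hsp90, Hsp60 and Hsp10 families, 1 row per probe, ordered by the difference between BmSCE RNAi (circle) and BmESC RNAi (square), which a line joins, with points drawn only where the flag passed. BmESC RNAi lies to the left of BmSCE RNAi in every row except the lowest, Hsc70 (sw22917).

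Most of the higher heat shock genes that could be placed lay on 1 chromosome, an order looked up after the values were seen. Gene order was taken from the RefSeq assembly ASM3026992v2, on which 22 compared probes of 19 heat shock and chaperone genes were placed on 12 chromosomes. One chromosome held 6 of these probes, of 5 genes, namely Hsp19.9, Hsp90, Hsp70, Hsp23.7 and Hsp20.1, with differences from 1.63 to 3.52. Hsp23.7 and Hsp20.1 were neighbors, but Hsp23.7 lay 35 protein-coding genes from Hsp70, and Hsp90 lay 50 from Hsp20.4. Of 16 compared probes placed elsewhere 1 was higher, that of Hsp21.4. The rest of those elsewhere were of cognate Hsp70 and other chaperone classes, such as chaperonins, DnaJ proteins and protein disulfide isomerase. Chromosome and class of chaperone were thus not separated, and neither was tested. The higher probes sw15945, sw00502, sw09447 and sw03800 were not placed. The same chromosome held Hsp20.8 and Hsp20.4, whose probes did not pass the flag on the BmESC array and are not counted here.

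Partners of Hsp90 and folding enzymes showed smaller differences. Of 23 compared immunophilins and Hsp90 co-chaperones, a list drawn up after the values were seen, 5 were higher (21.7%) and none lower. The share of a list so made cannot be set against the 1.84% of all probes. The count of higher probes was 1 to 5 with other processing. The p23-like protein (sw15610), which stabilizes Hsp90 complexes, had log2 ratios of -0.42 in BmSCE RNAi, -1.82 in BmESC RNAi, -0.78 in BmPHO RNAi and -0.78 in BmSCM RNAi. The FKBP45 probe (sw15595), a prolyl isomerase, had -0.46 and -1.55 in BmSCE and BmESC RNAi, a difference that was 0.74 with the authors' ratio. Another FK506-binding protein (sw02992) had 1.41 and 0.05, the difference here coming from BmSCE RNAi. Of 47 compared probes annotated to protein folding 10 were higher and none lower, with a median of 0.24. Among all probes 1.84% were higher and 1.85% lower. Most of the 10 were the heat shock probes above.

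Ribosomal and proteasome genes were shifted slightly upward, while related lists were not. Of 127 probes of cytosolic ribosomal proteins none was past 2.0-fold, but 100 (78.7%) lay above 0, against 51.4% of all probes, and the median was 0.21. Of 31 proteasome probes 1 was higher (3.23%, against 1.84% of all probes), 27 lay above 0 and the median was 0.22. That one was subunit 4 of the 26S regulatory particle (sw13233), a ubiquitin receptor, with log2 ratios of -0.91 in BmSCE RNAi and -1.97 in BmESC RNAi. In contrast, 73 probes of translation factors and tRNA synthetases had a median of -0.08 with 43.8% above 0, and 68 probes of the ubiquitin system had 0.01 with 51.5% above 0. A further component of the 26S particle, the match to SHFM1 (sw18143), had -0.28 in BmSCE RNAi, -2.05 in BmESC RNAi, -1.55 in BmPHO RNAi and -1.58 in BmSCM RNAi. The median differences of the control probes given above ran from -0.07 to 0.64. The ribosomal and proteasome shifts were smaller in the Cy5 channels alone, at 0.09 for ribosomal and 0.16 for proteasome probes against 0.07 for all probes.

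Mitochondrial genes resembled them. Of 101 probes of the mitochondrial ribosome and respiratory chain 4 were higher (3.96%, against 1.84% of all probes), 1 was lower and the median was 0.22. With the authors' ratio 1 was higher and none lower, and in the Cy5 channels alone 1 and 1. ATP synthase subunit e (sw15520) had -0.29 in BmSCE RNAi and -1.48 in BmESC RNAi. Cytochrome c oxidase polypeptide IV (sw00800) had 0.04 and -1.04. Neither of these remained past 2.0-fold in the Cy5 channels alone, with 0.95 and 0.69.

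Some genes of chromosome condensation and DNA replication were down less in BmSCE RNAi. Such probes were again listed after the values were seen, so their share of higher probes cannot be set against the 1.84% of all probes. Of the 14 listed 5 were higher and none lower. With the authors' ratio 2 were higher. The condensin subunit CAP-G (sw10332) had log2 ratios of -0.57 in BmSCE RNAi, -2.08 in BmESC RNAi, -1.46 in BmPHO RNAi and -1.33 in BmSCM RNAi. The small subunit of replication protein A (sw08359), which binds single-stranded DNA, had -0.63, -2.12, -2.28 and -1.75 in the same order. BmSCE RNAi stood nearest to EGFP RNAi in both. The aurora kinase match (sw04642), which acts in mitosis, differed by 1.06, and the match to subunit B of chromatin assembly factor 1 (sw05779) by 1.02, but by 0.97 and 0.81 with the authors' ratio. In the wider lists for DNA replication and repair and for the cell cycle, 2 of 72 (2.78%) and 1 of 44 (2.27%) probes were higher, near the 1.84% of all probes, and 1 and none were lower.

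Transporters, cuticle and immune genes supplied further called probes. Of 66 membrane transporters 2 were higher (3.03%, against 1.84% of all probes) and 4 lower (6.06%, against 1.85%), with a median of -0.05. The choline transporter-like match (sw10856) had log2 ratios of 1.87 in BmSCE RNAi, -0.78 in BmESC RNAi, 1.58 in BmPHO RNAi and 0.31 in BmSCM RNAi, a difference of 2.65. The match to a solute carrier of family 6 (sw03144), whose members carry amino acids and transmitters, differed by 2.15 because it was down to -2.66 in BmESC RNAi. Cuticle protein 6 (sw11040) had 0.79 in BmSCE RNAi and -1.27 in BmESC RNAi, with a Cy5 intensity of only 310 on the BmESC array. Chitin synthase (sw08657), which makes the polysaccharide of the cuticle, had 1.54 and -0.24. The cuticle pair were the 2 higher probes among 16 of the cuticle list (12.5%, against 1.84% of all probes), in which none was lower. The rest of that list did not lean clearly upward. Its median was 0.09, but -0.06 where all 4 intensities were at least 400 and -0.02 in the Cy5 channels alone.

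Of 23 probes in the immune list 3 were higher (13.0%, against 1.84% of all probes) and 1 lower (4.35%, against 1.85%). The higher ones included FKBP45, which the list took in through the word immunophilin. The peptidoglycan recognition protein (sw17404), a receptor for bacterial cell wall, had log2 ratios of 1.11 in BmSCE RNAi, -0.61 in BmESC RNAi, -0.50 in BmPHO RNAi and 0.33 in BmSCM RNAi. Lysozyme (sw05700), which cuts that wall, had 0.27 and -1.18 in BmSCE and BmESC RNAi. The lower member, a match to immune-related Hdd1 (sw04276), had 0.78 and 1.81, a difference of -1.04 that was -0.84 with the authors' ratio. The match to brinker (sw01232), a repressor of targets of the Dpp pathway in Drosophila, had 1.55 in BmSCE RNAi, 0.21 in BmESC RNAi, 0.94 in BmPHO RNAi and 1.31 in BmSCM RNAi. For brinker, BmESC RNAi was the array that stood apart, and the difference of 1.34 was 0.81 in the Cy5 channels alone.

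Some of the lower probes were up in both knockdowns and further up in BmESC RNAi. Of the 141 lower probes, 13 were up past 2.0-fold on both arrays, against 2 of the 140 higher ones. The largest named difference after DRING was at sw09668, a cytochrome b5 match, an electron carrier for lipid enzymes. Its log2 ratios were 1.68 in BmSCE RNAi, 4.48 in BmESC RNAi, 3.78 in BmPHO RNAi and 2.67 in BmSCM RNAi, with Cy5 and Cy3 intensities of 1522 and 408 in BmSCE RNAi and 10493 and 360 in BmESC RNAi. The difference was -2.80 (6.96-fold).

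The match to an insulin-related peptide binding protein (sw06810) behaved alike, with log2 ratios of 1.49 in BmSCE RNAi, 3.81 in BmESC RNAi, 4.28 in BmPHO RNAi and 2.86 in BmSCM RNAi. In both probes BmSCE RNAi gave the smallest rise of the 4 knockdowns. Beta-glucosidase and aquaporin were highest in BmESC RNAi among the arrays that measured them. Beta-glucosidase (sw04028) had 1.07 in BmSCE RNAi, 2.62 in BmESC RNAi, -0.42 in BmPHO RNAi and -0.00 in BmSCM RNAi. Aquaporin (sw12688), a water channel, had 2.36 in BmSCE RNAi and 3.57 in BmESC RNAi and did not pass the flag in BmPHO RNAi. Its Cy3 intensity on the BmSCE array was 97, under the floor of 100 that was set, and its difference of -1.21 was -0.71 with the authors' ratio.

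Genes tied to amino acid supply were among the lower probes. The ovary C/EBPg factor (sw06415), a bZIP protein whose mammalian homologue pairs with ATF4, had log2 ratios of 0.63 in BmSCE RNAi, 1.91 in BmESC RNAi, 0.60 in BmPHO RNAi and 0.41 in BmSCM RNAi. Its Cy5 and Cy3 intensities were 8006 and 4410 in BmSCE RNAi and 16994 and 3465 in BmESC RNAi. Asparagine synthetase (sw11016), a target of ATF4 in mammals, had 0.86, 2.02, 1.48 and 1.49 in the same order of arrays. Cystathionine gamma-lyase (sw14088), which makes cysteine, had 0.53, 1.66, 1.42 and 0.86, and a cationic amino acid transporter (sw02976) had 0.26, 1.35, 1.13 and 0.73. BmESC RNAi was the highest array for all of these.

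As a list the pattern was mixed. Of 15 compared probes for bZIP factors and amino acid response 3 were lower, 1 was higher and the median was -0.16. The third lower probe was the match to the ATF7-interacting protein (sw07891), a cofactor of gene silencing in mammals, with a difference of -1.24, and the higher one was a leucine zipper match (sw07589) with 1.13. With the authors' own ratios 1 of the 15 was lower. Of 26 enzymes of amino acid and one-carbon metabolism, listed after the values were seen, 3 were lower (11.5%) and 1 higher (3.85%). Because of that choice these shares cannot be set against those of all probes. With the authors' ratio asparagine synthetase differed by -0.89, cystathionine gamma-lyase (sw14088) by -0.81, the cationic amino acid transporter (sw02976) by -0.97 and the ATF7-interacting protein match (sw07891) by -0.97, all under 2.0-fold.

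A few chromatin and nucleolar probes were also lower, without a shift of the wider lists for remodeling and ribosome biogenesis that way. The histone H2A-like probe (sw10499) had log2 ratios of -0.05 in BmSCE RNAi, 1.11 in BmESC RNAi, -0.74 in BmPHO RNAi and 0.41 in BmSCM RNAi. Of 3 histone probes compared it was the only lower one (33.3%, against 1.85% of all probes), and their median was -0.65. The histone H2B match (sw18054) had 1.79 in BmSCE RNAi and 2.44 in BmESC RNAi. It was also lower with the authors' ratio (-1.12) and in the Cy5 channels alone (-1.22). The H2A family member V probe (sw08118) differed by 0.16. MOF (sw03944), the acetyltransferase of histone H4 that acts in fly dosage compensation, had 0.06 in BmSCE RNAi and 1.14 in BmESC RNAi, a difference of -1.07. With the authors' ratio MOF differed by -0.92, under the threshold. It was the only one of 27 trithorax and remodeling probes that was lower (3.7%, against 1.85% of all probes), and none was higher. That list had a median of 0.12 with 63.0% above 0. A nucleosome assembly protein probe (sw21923) was higher, with a difference of 1.08, and another of the same gene (sw04271) differed by 0.17. The matches to pescadillo, which acts in assembly of the large ribosomal subunit, differed by -1.11 (sw16285) and -1.09 (sw15884), and by -0.81 and -0.87 in the Cy5 channels alone. The list for RNA helicases and ribosome biogenesis did not take them in. Of its 56 compared probes none was past 2.0-fold, and the median was 0.01.

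The Hox probes that could be compared, of the developmental regulators for which PcG proteins are best known, differed little. Of 39 Hox probes on the array only 8 were compared. None of these was past 2.0-fold, and the median was 0.10. Outside that list, the homeobox matches BarH2 (sw10863) and BarH-like 2 (sw18394) were lower, with differences of -1.03 and -1.05. The match to Gfi-1 (sw14475), a zinc finger repressor, had 0.85 in BmSCE RNAi, 1.92 in BmESC RNAi, 1.53 in BmPHO RNAi and 2.23 in BmSCM RNAi. An ets domain factor (sw07565) differed by -1.26. Of 135 zinc finger probes 3 were higher and 4 lower, near the share among all probes. Of 65 compared probes annotated to transcription factor activity 1 was higher and 4 were lower. For the 213 annotated to the nucleus these counts were 4 and 11. Among all probes 1.84% were higher and 1.85% lower.

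**Figure D4:**
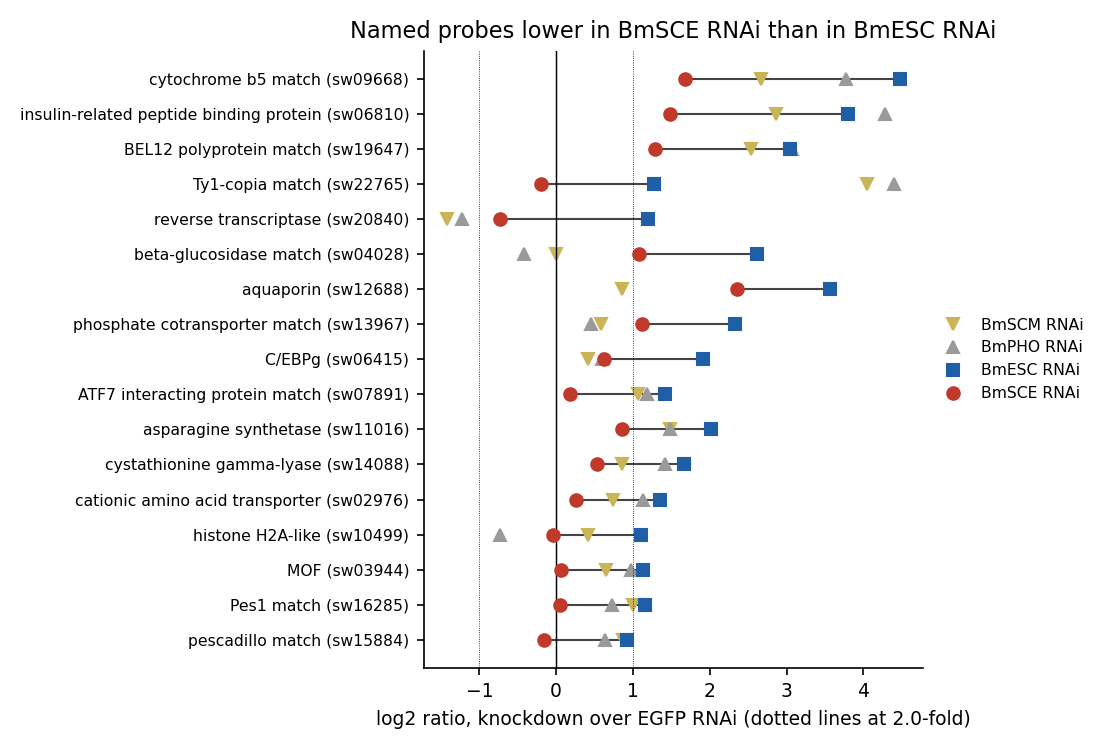
Log2 ratio over EGFP RNAi on the 4 arrays for named probes that were lower in BmSCE RNAi (circle) than in BmESC RNAi (square), 1 row per probe. BmSCE RNAi lies to the left of BmESC RNAi in every row by the choice of probes, while BmPHO RNAi (upward triangle) and BmSCM RNAi (downward triangle) fall on either side or in between where the flag passed.

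Transposon sequences went both ways. Of 198 compared probes of retrotransposons and transposases 8 were higher (4.04%, against 1.84% of all probes) and 6 lower (3.03%, against 1.85%), and the median was -0.04. With a floor of 400 on intensities the counts were 4 and 7. The BEL12 polyprotein match (sw19647) had log2 ratios of 1.28 in BmSCE RNAi, 3.05 in BmESC RNAi, 3.07 in BmPHO RNAi and 2.53 in BmSCM RNAi. The Ty1-copia match (sw22765) had -0.19, 1.27, 4.40 and 4.05, so that BmPHO and BmSCM RNAi exceeded both arrays compared. A silkworm reverse transcriptase (sw20840) was up in BmESC RNAi alone, at 1.19, with -0.73 in BmSCE RNAi. On the higher side, the match to a piggyBac-derived protein (sw19579) had -0.47 in BmSCE RNAi and -2.37 in BmESC RNAi.

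Matches to a 210 kDa protein of the flesh fly showed 3 higher probes with unlike profiles. Probe sw10690 had log2 ratios of 0.41 in BmSCE RNAi, -1.93 in BmESC RNAi, 0.13 in BmPHO RNAi and -0.07 in BmSCM RNAi. Probe sw22447 had 0.61, -1.01, 3.48 and 3.14, and sw18355 had 0.58, -0.67, 3.38 and 2.87. The latter pair was up past 2.0-fold in BmPHO and BmSCM RNAi only.

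**Figure D5:**
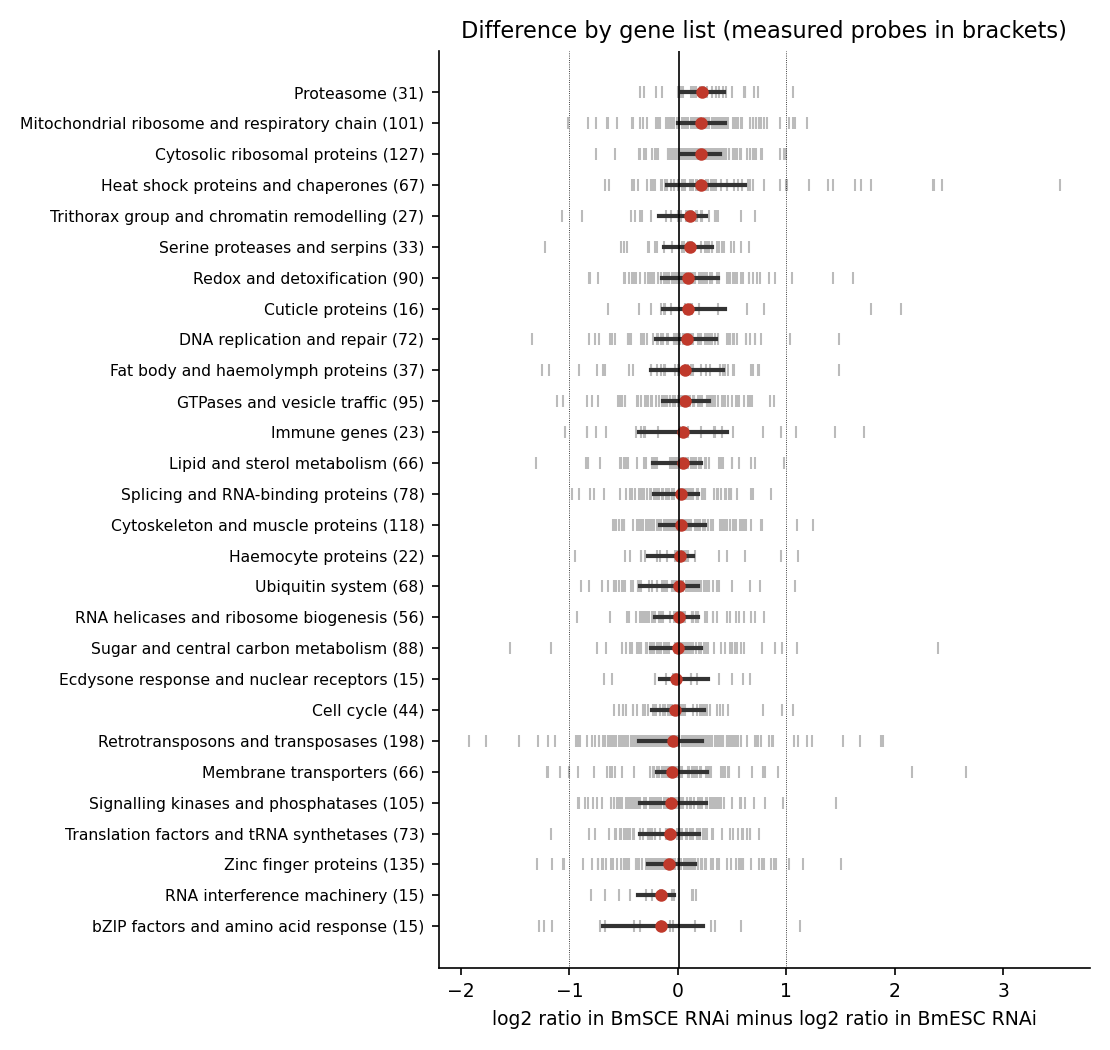
Difference in log2 ratio, BmSCE RNAi minus BmESC RNAi, by gene list, with 1 tick per probe compared, the median as a dot and the middle 50% of probes as a bar, and dotted lines at 2.0-fold. The heat shock list carries the longest tail to the right, up to 3.52, and the medians of all lists shown lie between -0.16 and 0.22.

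The RNA interference machinery itself, which the dsRNA treatment engages on every array, had 15 compared probes, none past 2.0-fold, with a median of -0.16. The dicer-2 matches had log2 ratios of 0.74 in BmSCE RNAi and 1.54 in BmESC RNAi (sw09480), and 0.57 and 0.87 (sw09354). The germ line markers expected of an ovary line were 6 compared probes, none past 2.0-fold. Aubergine (sw10899), of the piRNA pathway, had Cy5 and Cy3 intensities of 8026 and 11030 in BmSCE RNAi and 8009 and 9750 in BmESC RNAi, a difference of -0.04. GAPDH (sw03207), often used as a reference gene, had log2 ratios of 0.77 in BmSCE RNAi and -0.12 in BmESC RNAi, a difference of 0.89 that is under 2.0-fold. Of the genes that the study took to RT-PCR, the ecdysone-response receptor E75 (sw11067) was up on all 4 arrays, with log2 ratios of 1.50 in BmSCE RNAi and 1.70 in BmESC RNAi, and the match to mitochondrial phosphoenolpyruvate carboxykinase (sw19873) was up by 1.95 and 1.33. The rhomboid-like match (sw14054), a membrane protease, had 1.11 and 1.94. None of these 3 was past 2.0-fold between the arrays compared. Of that set the matches to cytochrome b5 and insulin-related peptide binding protein, given above, and sw13074 were past the threshold. Probe sw13074 had log2 ratios of 3.47 in BmSCE RNAi and 2.40 in BmESC RNAi. Its difference of 1.07 was 0.90 with the authors' ratio.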

How the data were processed

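Spots were 1 per gene probe on 2-color oligonucleotide arrays of 24288 spots (23229 gene probes, 677 control spots and 382 blanks). The authors deposited the Cy5 and Cy3 intensity of each spot after background subtraction, a detection flag, and a normalized Cy5 over Cy3 ratio, and the deposited series table holds the log2 of that ratio. A column with the authors' calls of change was not used. No source used here names the software behind these values. Intensities under 100 were set to 100, and log2 ratios were normalized by loess (span 0.3) over gene probes on each array with limma 3.58.1 in R 4.3.3. Python 3.11.15 with numpy 2.4.6, pandas 2.3.3, scipy 1.17.1 and matplotlib 3.10.9 did the rest. The resulting differences correlated with those from the authors' ratios at 0.961 over the probes compared. The steps were checked on simulated data.

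The flag passed 7833 probes on the BmSCE array and 9869 on the BmESC array, and arrays give no counts, so that their number, 1 per knockdown, limits the precision. Groups came from the labels. No test was run. Named probes were the 15 farthest apart in each direction with a name and all intensities at least 400, those moved in opposite directions, measured PcG probes, the 10 genes taken to RT-PCR and GAPDH, the 3 farthest members of each list whose share past 2.0-fold exceeded that of all probes, and genes with several probes past 2.0-fold. Probes named outside this rule were chosen after their values were seen. The 34 gene lists were matched by words in the probe names. Members and lists were chosen with earlier results of these data known, and 7 further lists after seeing these values. The 9 alternatives were the authors' ratio, median centring, loess within print blocks, yeast spike-in scaling, the Cy5 channels compared directly, floors of 50 and 400, both channels at least 400, and no flag filter. Primer sequences came from the study's primer table, and gene order from RefSeq for 757 of 779 gene IDs.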

Additional observations from a re-analysis of the deposited data

Results flagged for a closer look

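The 4 probes that passed 2.0-fold in opposite directions in BmSCE RNAi and BmESC RNAi, each on 1 array, were picked out because the knockdowns moved them opposite ways. Whether the knockdowns differ at these probes was not tested. The beta-ureidopropionase match (sw08667) differed by 5.01, the annulin match (sw20237) by 2.59, the unnamed probe sw13031 by 2.10, and the unnamed probe sw18563 by -3.30 on the log2 scale.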

How the results depend on the processing

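The counts of higher and lower probes, 140 and 141, stayed within 1.5 times under 8 of the 9 alternatives. With no flag filter they were 215 and 306, and 7 probes went opposite ways in place of 4. With yeast spike-in scaling 1 probe went opposite ways. Median centring gave 119 higher and 177 lower probes and yeast spike-in scaling 121 and 165, which moved the balance toward lower calls. The causes were not tested. Of the higher and lower probes 107 and 108 were also called from the authors' ratio, and 109 and 67 from the Cy5 channels alone. Of 79 named probes past 2.0-fold 63 had a value under all 9 alternatives, and 42 of these remained past it under each. The other 16, DRING (sw15420) among them, had a channel under 400 and so no value under the stricter intensity filter, and 6 of these remained past it under the rest. No named probe past 2.0-fold changed direction where it had a value. Small differences could change sign, as that of the polyhomeotic match sw17606, with 0.08 here and -0.09 in the Cy5 channels alone. Loess along brightness can shrink or enlarge a true ratio where the dye bias changes with brightness, depending on whether the bias rises or falls. A probe with a dim channel has an uncertain ratio. Leaving out a replicate was not possible with 1 array per knockdown. No paired analysis was possible because each knockdown has 1 array.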

Other observations

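Probes measured on only 1 of the arrays compared, BmSCE RNAi and BmESC RNAi, were outside the comparison. The flag passed on the BmSCE array only for 214 probes, of which 28 would be higher and 3 lower, and on the BmESC array only for 2250, of which 3 would be higher and 97 lower. Among the former was Hsp20.4 (sw18670), with a difference of 3.34 and a channel under the floor of 100, and Hsp20.8 (sw18898), with 2.23.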
